A study of Bos taurus with 9 samples.

Results

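MX1, MX2, RSAD2, CMPK2 and BST2 are antiviral effectors of the interferon response. They were followed across cells labelled as bovine endometrial epithelial cells and given DPPA3 mRNA, transfection reagent alone or nothing. The genes were taken by symbol from the deposited table of raw read counts. Of the 5 symbols, 4 were matched among the 30641 genes of the table, and BST2, which encodes tetherin, a protein that holds budding virus particles at the cell surface, was not analysed here. All 4 matched genes were among the 14874 with enough counts to be tested. MX2 and RSAD2 reached that limit through the cells given DPPA3 mRNA, since nearly all their counts lay there.

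The DPPA3 mRNA group (n = 3) was transfected 24 hours after seeding with 500 ng of in vitro transcribed DPPA3 mRNA, carried by jetMESSENGER, a reagent that brings mRNA into cells. The reagent alone group (n = 3) was exposed to jetMESSENGER at that same time with no RNA. The untreated control group (n = 3) had no treatment. All were labelled as bovine endometrial epithelial cells in a commercial growth medium. None of the groups was given an mRNA other than DPPA3, so the sequence of DPPA3 and the presence of a transfected mRNA cannot be told apart. The labels do not say whether replicates were separate cultures or animals, so p-values describe only the spread between these libraries, which may be technical.

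Interferons act through receptors that switch on transcription factors of the STAT and IRF families, and these induce a large set of antiviral genes. MX1 and MX2 are large GTPases of the dynamin superfamily that trap viral components inside the cell. RSAD2 encodes viperin, a radical SAM enzyme that turns CTP into a chain-terminating nucleotide, and CMPK2 encodes a mitochondrial kinase that phosphorylates UMP and CMP. In the endometrium of ruminants this family of genes is known for its induction by interferon tau, the pregnancy signal of the conceptus.

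Total counts ranged from 11070923 to 13258036 in the DPPA3 mRNA libraries, from 3890134 to 12092771 with reagent alone and from 7258348 to 10130619 in untreated control. The transfected transcript matched the labels, at 126334 to 213790 counts of DPPA3 in each DPPA3 mRNA library, 0 counts in each reagent alone library and at most 2 in an untreated control library. KRT18, an epithelial keratin, averaged 1856 ± 242 CPM (the gene's count over the library's total scaled by a TMM factor, in the usual per-million unit) after DPPA3 mRNA, 1619 ± 66.0 after reagent alone and 1979 ± 540 in untreated control (SD, n = 3 each). EPCAM, another epithelial marker, was at most 0.782 CPM in any library, and the stromal collagen COL1A1 averaged 9805 ± 1345 CPM after DPPA3 mRNA, 9303 ± 1548 after reagent alone and 13115 ± 5031 in untreated control (SD, n = 3 each). The 8 immune markers summed to 5.05 to 9.17 CPM per library after DPPA3 mRNA, 6.97 to 9.79 after reagent alone and 5.64 to 8.99 in untreated control, with PTPRC at 0 counts in all 9 libraries. Levels differed widely within the lists of 6 epithelial and 9 stromal markers. Group means were 4067 to 4451 CPM for the keratin KRT8 and 13088 to 14184 CPM for the collagen COL1A2. THY1, another stromal marker, was at most 1.29 CPM in any library. Some epithelial and some stromal markers were thus both abundant and others scarce, and the epithelial name is the one given by the labels. In these bulk samples, fewer responding cells and less RNA in each cell cannot be told apart.

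In scaled CPM, all 4 genes stood higher in each DPPA3 mRNA library than in any library of the other groups, by amounts that differed widely between replicates. Such separation was met by 4.91% of all genes tested over reagent alone and by 4.24% over untreated control. MX2 and RSAD2 were tested only because of their counts with DPPA3 mRNA, so nothing is read from their separation. None of the 4 genes passed edgeR's test over all genes. The counts of MX1 were 370, 7411 and 1367 in replicates 1, 2 and 3 of DPPA3 mRNA, 35, 112 and 344 in those of reagent alone, and 36, 94 and 90 in those of untreated control. In CPM, and in the same order of replicates, this was 27.9, 669 and 116 after DPPA3 mRNA, 8.72, 10.1 and 27.1 after reagent alone, and 5.80, 10.2 and 8.80 in untreated control. DPPA3 mRNA replicate 2 was far above the other transfected libraries, and reagent alone replicate 3 was the highest of the 6 libraries without mRNA. The lowest transfected library barely cleared the highest reagent alone library, with a ratio of 1.03 and an exact 95% counting interval of 0.887 to 1.20. By unscaled totals that ratio was 0.981, so the separation of MX1 from reagent alone in replicate 1 was within counting error.

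MX2 had almost no counts without mRNA. In replicates 1, 2 and 3 of DPPA3 mRNA its counts were 19, 428 and 20 (1.43, 38.7 and 1.70 CPM), against 0, 0 and 2 in those of reagent alone and 0 in each untreated control library. A count of 0 allows up to 3 counts per library, which is 0.236 to 0.747 CPM over the reagent alone libraries and 0.293 to 0.483 CPM over the untreated controls. All 3 transfected libraries thus lay above that floor, and replicates 1 and 3 lay close to each other.

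RSAD2, the viperin gene, gave 117, 2494 and 85 counts in replicates 1, 2 and 3 of DPPA3 mRNA (8.82, 225 and 7.21 CPM). In the same order it gave 0, 7 and 13 counts after reagent alone and 0, 0 and 4 in untreated control. No transfected library overlapped the other groups, from which nothing is read, as stated above. DPPA3 mRNA replicates 1 and 3 stood 8.61-fold and 7.04-fold above the highest reagent alone library, where the same ratios were 1.03 and 4.28 for MX1 and 1.65 and 2.53 for CMPK2. The ratios for RSAD2 rest on a reagent alone library of 13 counts, and the order of the genes was not tested.

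CMPK2 had the highest counts outside the transfected cells after MX1 and the smallest fitted difference of the 4 genes. Replicates 1, 2 and 3 of DPPA3 mRNA stood at 4.60, 56.2 and 7.05 CPM (61, 622 and 83 counts). Those of reagent alone stood at 1.99, 2.78 and 2.36 CPM (8, 31 and 30 counts) and those of untreated control at 3.06, 1.41 and 1.08 CPM (19, 13 and 11 counts). The DPPA3 mRNA libraries lay above all others, those of reagent alone and untreated control overlapped, and unlike for MX1, MX2 and RSAD2, reagent alone replicate 3 was not the highest library of its group.

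**Figure D1:**
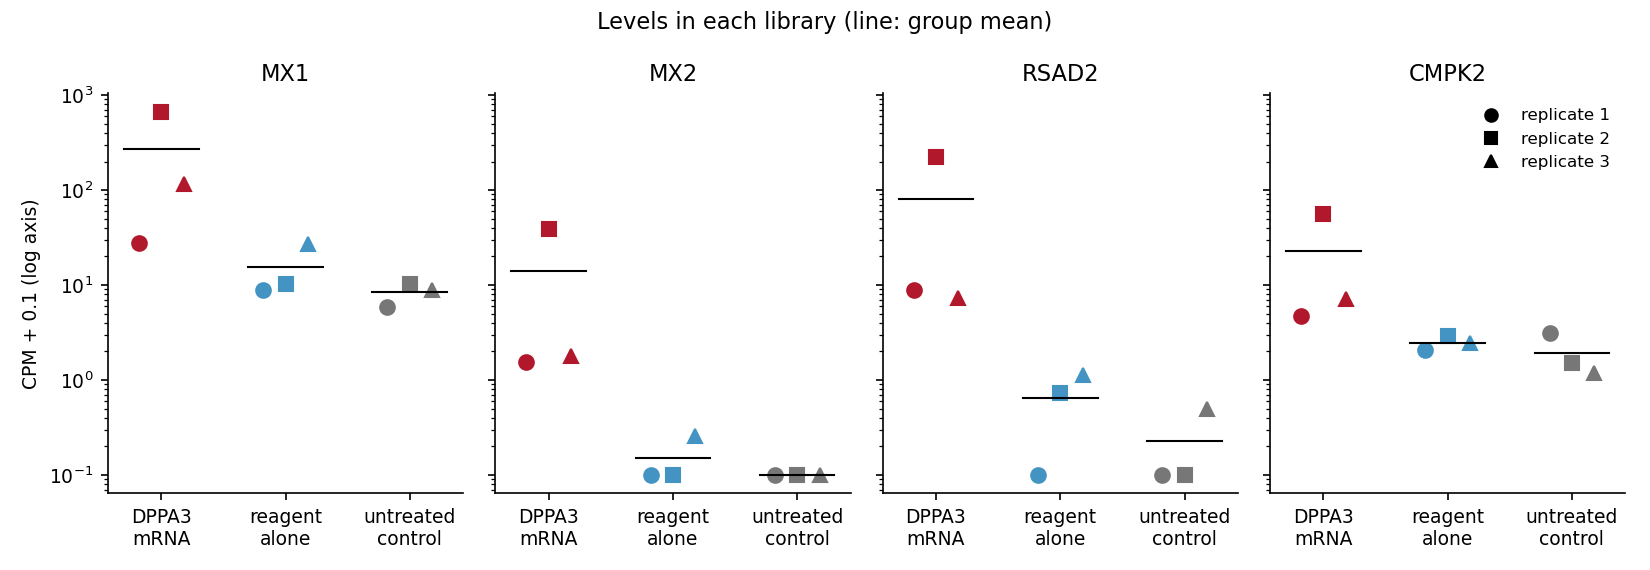
Level of MX1, MX2, RSAD2 and CMPK2 in each of the 9 libraries, as CPM plus 0.1 on a log axis, by group, with the replicate number as the symbol and a line at the group mean. DPPA3 mRNA replicate 2 is the highest library for each gene, at 669, 38.7, 225 and 56.2 CPM, and the lowest MX1 value with DPPA3 mRNA (27.9 CPM) lies next to the highest with reagent alone (27.1 CPM).

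Against reagent alone, which all transfected cells also received, MX1 had a log2 fold change of 4.10 (SE 0.86; edgeR's quasi-likelihood test, Benjamini-Hochberg adjusted p = 0.59), with means of 271 ± 348 CPM after DPPA3 mRNA and 15.3 ± 10.2 after reagent alone (SD, n = 3 each). RSAD2 averaged 80.4 ± 125 CPM after DPPA3 mRNA and 0.55 ± 0.52 after reagent alone (SD, n = 3 each), a log2 fold change of 6.84 (SE 1.35; edgeR adjusted p = 0.47). CMPK2 averaged 22.6 ± 29.1 CPM after DPPA3 mRNA and 2.38 ± 0.40 after reagent alone (SD, n = 3 each), a log2 fold change of 3.21 (SE 0.80; edgeR adjusted p = 0.90). For each of these genes the SD with DPPA3 mRNA was larger than the mean.

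MX2 averaged 13.9 ± 21.4 CPM after DPPA3 mRNA and 0.053 ± 0.091 after reagent alone (SD, n = 3 each). Pooled over libraries, the ratio of its levels was 180, with an exact 95% counting interval of 49.6 to 1491, which rests on 2 counts with reagent alone. Its fitted log2 fold change of 7.38 depends on the prior count and did not pass (SE 1.66; edgeR adjusted p = 0.72). Counting intervals here cover counting error only, since reads without molecular identifiers are not independent molecules.

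So 0 of the 4 genes were called against reagent alone by edgeR, where 0.00672% of all genes tested were called higher, that 1 gene being DPPA3 itself. MX1 and CMPK2, which had enough counts in every group to be tested, both had an unadjusted p under 0.05 with higher levels, against 1.27% of all genes, and no overlap between the groups in this direction, against 4.91% of all genes. MX2 and RSAD2 also met both, but were tested only because of their counts with DPPA3 mRNA, so nothing is read from their share. Ordered by unadjusted p among 14874 genes, RSAD2 was at rank 6, MX1 at 9, MX2 at 19 and CMPK2 at 23. For a single gene, a two-sided exact permutation test of 3 against 3 libraries cannot go below p = 0.1. DESeq2 gave MX1 an adjusted p of 0.080 and CMPK2 0.53, returned no p for MX2 and RSAD2, and called 0.0606% of all genes higher. With no filter on low counts all 4 genes passed in edgeR, the highest adjusted p being 9.2e-09, for CMPK2, where 0.265% of all genes were called higher.

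Leaving out single transfected libraries changed these results. Without DPPA3 mRNA replicate 1, MX1 (log2 fold change 4.63) and RSAD2 (7.37) passed against reagent alone, at edgeR adjusted p = 0.0099 and 0.025, where 0.13% of all genes were called higher. CMPK2 (3.69, edgeR adjusted p = 0.065) and MX2 (7.91, 0.072) did not pass. Nothing is read from the pass of RSAD2, which was tested only because of its counts with DPPA3 mRNA. With DPPA3 mRNA replicate 2 left out, the log2 fold change was 2.20 for MX1, 3.60 for RSAD2 and 1.26 for CMPK2, and none of the 4 genes passed (edgeR adjusted p = 0.99988 for each), where 0.013% of all genes were called higher. The pooled ratio for MX2 was then 21.7, with a 95% counting interval of 5.61 to 185. With replicate 3 left out, 0 of the 4 passed and 0.00652% of all genes were called higher. Each value was lowest without replicate 2 and remained above 0.

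**Figure D2:**
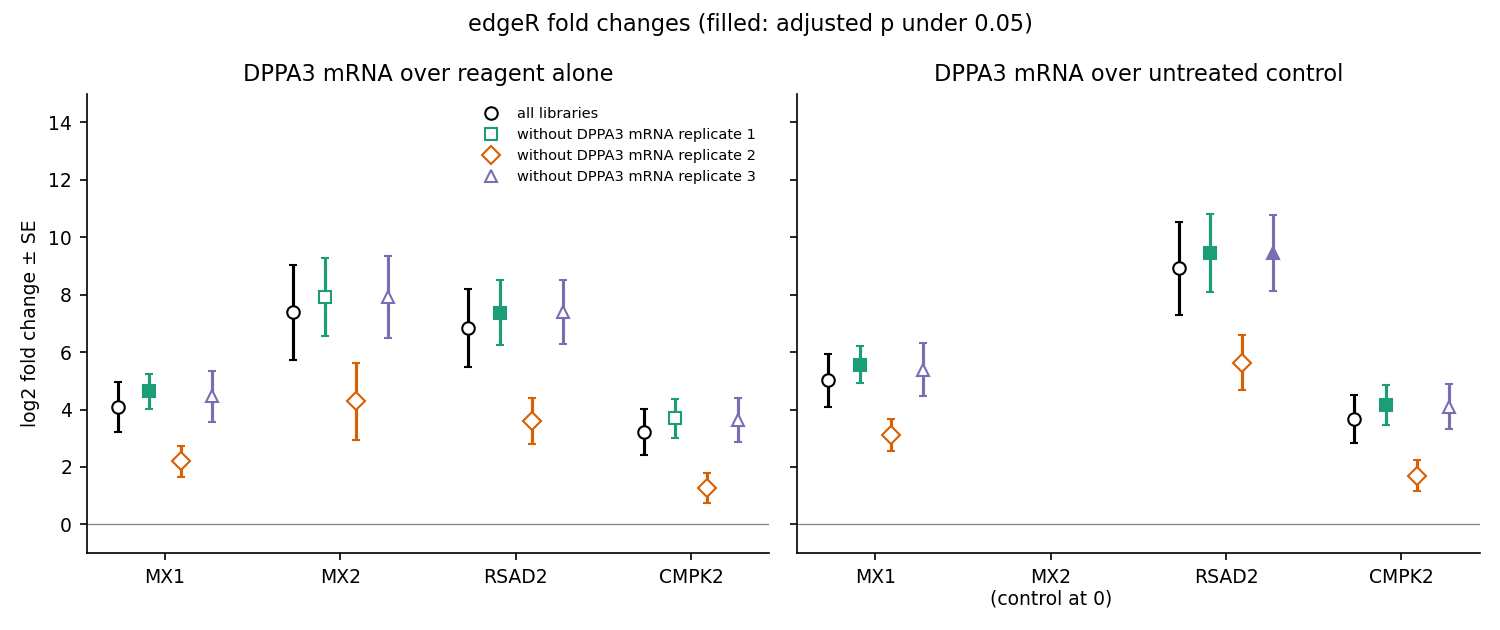
Log2 fold change (edgeR) with its SE for each gene, with all libraries and without each DPPA3 mRNA library in turn, over reagent alone (left) and over untreated control (right); filled symbols passed at an adjusted p under 0.05. With DPPA3 mRNA replicate 2 left out, the values over reagent alone lie lowest, at 2.20 for MX1 and 1.26 for CMPK2, and MX2 is not drawn on the right because its control libraries hold 0 counts.

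Set against untreated control, the cells differed by both reagent and mRNA, and this comparison shares its DPPA3 mRNA libraries with the comparison above. MX1 averaged 271 ± 348 CPM after DPPA3 mRNA and 8.26 ± 2.24 in untreated control (SD, n = 3 each), a log2 fold change of 5.02 (SE 0.91; edgeR adjusted p = 0.21). CMPK2 averaged 22.6 ± 29.1 CPM after DPPA3 mRNA and 1.85 ± 1.06 in untreated control (SD, n = 3 each), a log2 fold change of 3.67 (SE 0.83; edgeR adjusted p = 0.48). RSAD2 had 2696 counts over the DPPA3 mRNA libraries and 4 over the untreated controls, a ratio of pooled levels of 479 with a 95% counting interval of 187 to 1760 (edgeR adjusted p = 0.21). MX2 was at least 37.9-fold higher with DPPA3 mRNA than in untreated control, taking the floor of 3 counts for every control library (edgeR adjusted p = 0.47).

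By edgeR 0 of the 4 genes were called against untreated control, where 0.0134% of all genes were called higher. MX1 and CMPK2 both had an unadjusted p under 0.05 with higher levels (2.09% of all genes) and no overlap between groups (4.24% of all genes). The same held for MX2 and RSAD2, from which nothing is read, as their counts with DPPA3 mRNA are what let them be tested. Whether equal replicate numbers pair the libraries of these groups is not stated by the labels and was not shown here. A fit with the replicate number as a block covered all 9 libraries, those of reagent alone included. In it MX1 (edgeR adjusted p = 0.061) and CMPK2 (0.39) did not pass. RSAD2 (0.018) and MX2 (0.025) passed, and nothing is read from this either, for the reason given above. With that block 0.0403% of all genes were called higher. With DPPA3 mRNA replicate 1 left out, all 4 passed (edgeR adjusted p = 0.0051 for MX1, 0.012 for RSAD2, 0.034 for CMPK2 and 0.047 for MX2), where 0.17% of all genes were called higher. That library was the lowest transfected one for MX1, MX2 and CMPK2. With replicate 3 left out, RSAD2 passed (edgeR adjusted p = 0.048) and the other 3 did not, where 0.0196% of all genes were called higher. Nothing is read from the passes of RSAD2 and MX2 in these fits, for the same reason. DESeq2 called MX1 against untreated control (log2 fold change 5.03, adjusted p = 0.0033), where 0.073% of all genes were called higher. With no filter on low counts edgeR called all 4, where 0.261% of all genes were called higher. With DPPA3 mRNA replicate 2 left out, 0 of the 4 passed and 0.013% of all genes were called higher. The log2 fold change was then 3.11 for MX1 and 1.69 for CMPK2, the ratio for RSAD2 was 51.8 (95% counting interval 19.9 to 192), and MX2 was at least 4.26-fold higher with DPPA3 mRNA.

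Reagent alone and untreated control overlapped for all 4 genes. MX1 had a log2 fold change of 0.92 for reagent alone over untreated control (SE 0.85; edgeR adjusted p = 0.62), and CMPK2 of 0.46 (SE 0.88; edgeR adjusted p = 0.82). RSAD2 held 20 counts over the reagent alone libraries and 4 over the untreated controls (edgeR adjusted p = 0.70), and MX2 held 2 and 0, under the floor in both groups. None of these genes was called by edgeR, where 0% of all genes were called higher. DESeq2 called neither MX1 (adjusted p = 0.70) nor CMPK2 (0.87). It gave no p for RSAD2 and is not reported for MX2 in this comparison. An unadjusted p under 0.05 with higher levels was reached by 0 of the 4, against 4.23% of all genes, and 0 had no overlap in this direction, against 6.92% of all genes. Without reagent alone replicate 3 the log2 fold change of MX1 was 0.18.

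Over the transfected libraries the 4 genes spread more widely than DPPA3 itself. DPPA3 took 0.953%, 1.93% and 1.84% of all counts in DPPA3 mRNA replicates 1, 2 and 3, so replicates 2 and 3 differed 1.07-fold in CPM of DPPA3. Between the same libraries MX1 differed 5.77-fold, CMPK2 7.98-fold, MX2 22.8-fold and RSAD2 31.2-fold, with replicate 2 higher each time. Replicate 3 held 1.90 times the DPPA3 of replicate 1, and in it MX1 was 4.16-fold and CMPK2 1.53-fold the level of replicate 1, MX2 1.18-fold and RSAD2 0.818-fold. RSAD2 was thus the 1 gene of the 4 that was lower in replicate 3 than in replicate 1.

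The balance between the genes differed from library to library. RSAD2 made up 24.0% and 25.2% of the summed counts of RSAD2 and MX1 in DPPA3 mRNA replicates 1 and 2, but 5.85% in replicate 3, with exact (Clopper-Pearson) 95% intervals of 20.3% to 28.1%, 24.3% to 26.0% and 4.70% to 7.19%. In reagent alone replicates 2 and 3 that share was 5.88% (2.40% to 11.7%) and 3.64% (1.95% to 6.15%), and in untreated control replicate 3 it was 4.26% (1.17% to 10.5%). RSAD2 was at 0 counts in the other libraries. The balance of RSAD2 and MX1 in DPPA3 mRNA replicate 3 thus lay within the range of the libraries without mRNA, although both genes stood higher there.

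MX2 made up 4.88%, 5.46% and 1.44% of the summed counts of MX2 and MX1 in DPPA3 mRNA replicates 1, 2 and 3 (95% intervals 2.97% to 7.52%, 4.97% to 5.99% and 0.883% to 2.22%), against 0.578% (0.0701% to 2.07%) in reagent alone replicate 3. CMPK2 held 14.2%, 7.74% and 5.72% of the summed counts of CMPK2 and MX1 in replicates 1, 2 and 3 of DPPA3 mRNA, against 18.6%, 21.7% and 8.02% in those of reagent alone and 34.5%, 12.1% and 10.9% in those of untreated control, and these groups overlapped. A share within a library shows unequal change of the pair and does not say which gene differed. MX1 and MX2 are related in sequence, and how reads matching both were counted is not given in the sources used here.

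**Figure D3:**
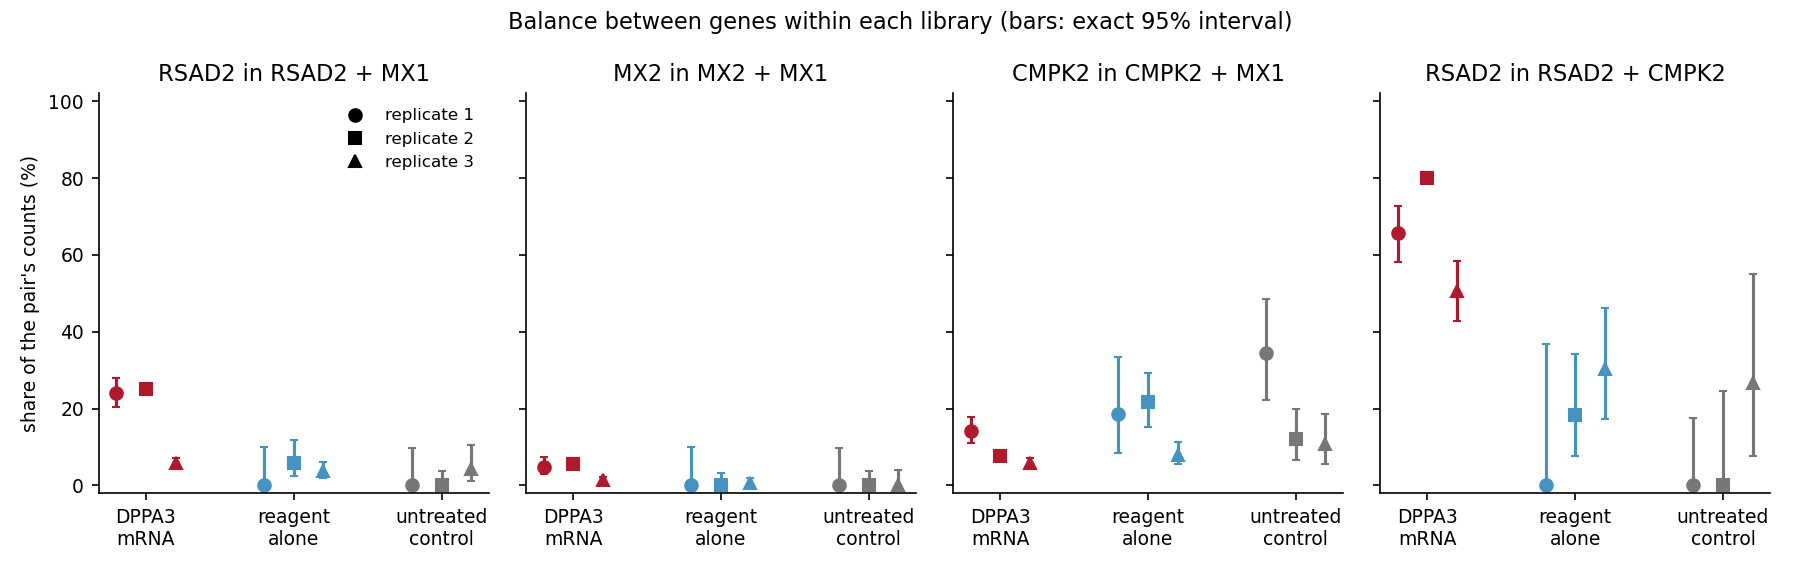
Share of a pair's summed counts taken by its first gene in each library, in percent, with exact 95% intervals (counting error only), for 4 pairs. In DPPA3 mRNA replicate 3, RSAD2 takes 5.85% of the RSAD2 and MX1 counts, against 24.0% and 25.2% in DPPA3 mRNA replicates 1 and 2.

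The genes lie in neighbouring pairs. By gene order in RefSeq's ARS-UCD2.0 annotation, MX2 and MX1 are next to each other on chromosome 1, between FAM3B and TMPRSS2, and RSAD2 and CMPK2 are next to each other on chromosome 11, between RNF144A and SOX11, counting protein-coding genes of the count table. The build behind the counts is not given in the sources used here. These neighbours were chosen after values had been seen. Their levels differed between the pairs.

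TMPRSS2, a membrane serine protease gene beside MX1, gave 3, 101 and 12 counts in replicates 1, 2 and 3 of DPPA3 mRNA (0.226, 9.12 and 1.02 CPM), against 2, 7 and 0 in those of reagent alone and 4, 2 and 2 in those of untreated control. DPPA3 mRNA replicate 2 was the highest library, as for MX1, and replicate 1 lay within the other groups, which overlapped with DPPA3 mRNA. FAM3B, beside MX2, had 6 counts in DPPA3 mRNA replicate 2 and 0 in the other 8 libraries. Neither had enough counts to be tested, and strandedness of the counting is not stated. RNF144A, a ubiquitin ligase gene beside RSAD2, had 31.8 ± 5.49 CPM after DPPA3 mRNA, 31.7 ± 5.64 after reagent alone and 34.6 ± 10.5 in untreated control (SD, n = 3 each). In DPPA3 mRNA replicate 2 it was at 28.5 CPM, the lowest of its group. SOX11, a transcription factor gene beside CMPK2, had 32.5 ± 15.3 CPM after DPPA3 mRNA, 30.9 ± 12.6 after reagent alone and 39.9 ± 18.6 in untreated control (SD, n = 3 each).

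**Figure D4:**
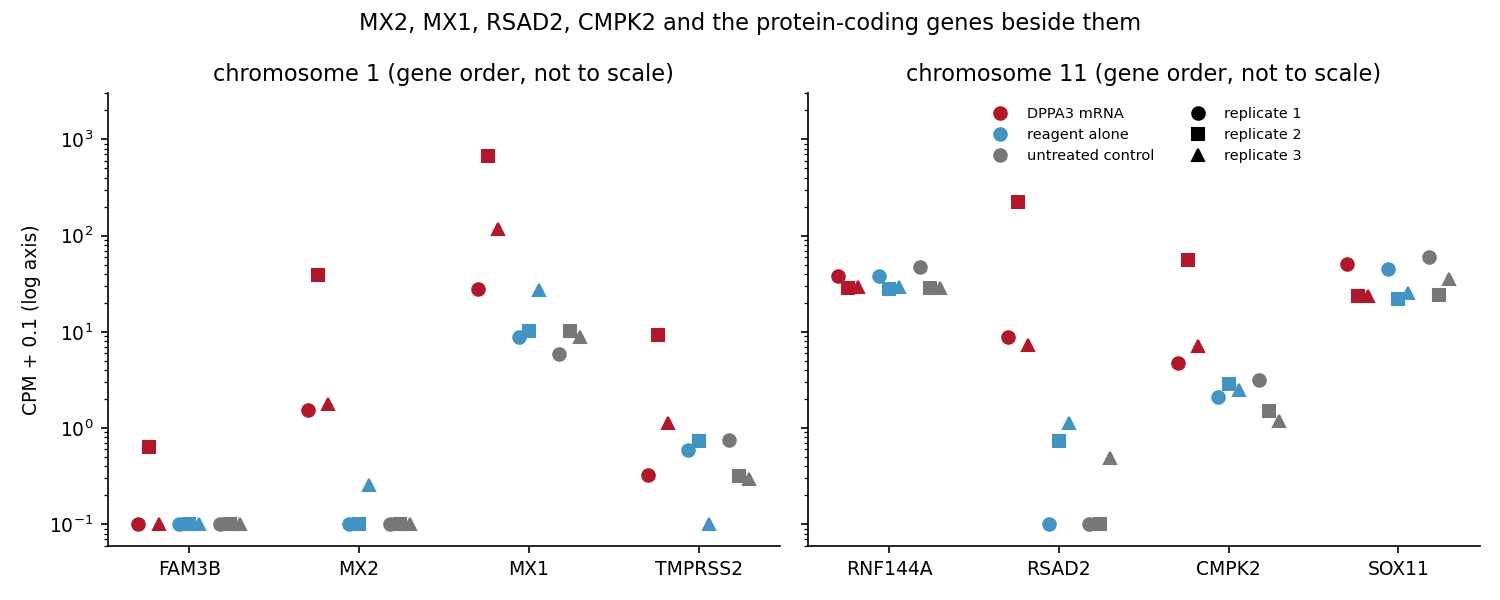
CPM plus 0.1 on a log axis for each library, for the 4 genes and the protein-coding genes on either side, in gene order and not to scale. TMPRSS2 reaches 9.12 CPM in DPPA3 mRNA replicate 2 and at most 1.02 CPM elsewhere, while RNF144A stays between 27.6 and 46.7 CPM in all libraries.

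Likeness of pattern was measured as the root mean square difference between log2 CPM profiles over the 9 libraries, each centred on its own mean, which also grows with the range of a gene. MX1 and MX2 were the closest pair of the 4 (0.72), and the neighbours RSAD2 and CMPK2 the farthest (1.91). MX1 spanned 6.80 log2 units over the libraries, MX2 7.60, RSAD2 10.13 and CMPK2 5.47. MX2 and RSAD2 had 0 counts in several libraries without mRNA. The low ends of their profiles, and so their ranges and distances, thus depend on the prior count and on depth. The other distances within the 4 were 0.92 for MX1 and CMPK2, 1.01 for MX2 and RSAD2, 1.08 for MX2 and CMPK2 and 1.40 for MX1 and RSAD2, so MX2 was the nearest of the 4 to RSAD2. Leaving the 4 genes themselves out, among 14152 others with a mean of at least 1 CPM, those nearest to MX1 were LOC100298356 (0.47), IFI6 (0.47), IFI27 (0.53), ZBP1 (0.60) and RTP4 (0.64), where the median gene was at 2.10. Outside the 4, nearest to MX2 were LOC100298356 (0.69), ZBP1 (0.73), IFI6 (0.78), ISG15 (0.85) and LOC507055 (0.88), against a median of 2.46.

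By this measure RSAD2 had no equally close gene, under the limit on its profile given above. Its nearest outside the 4 was LOC112441507 at 1.12, farther than MX2, followed by IFI6 (1.40), LOC100298356 (1.44), ISG15 (1.47) and LOC507055 (1.59), against a median of 3.20. Outside the 4, CMPK2 was nearest to SAMD9 (0.42), then ZBP1 (0.60), LOC100139670 (0.65), USP18 (0.65) and UBA7 (0.68), against a median of 1.57. These distances are descriptions, over 9 libraries that the genes share.

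Other interferon-stimulated effectors also stood higher at the median. Of 48 listed, 36 were tested, and their median log2 fold change over reagent alone was 1.91, against 0.0027 over all genes tested. By edgeR 0 of the 36 were called, where 0.00672% of all genes were called higher. Of the 36, 30 had an unadjusted p under 0.05 with higher levels, against 1.27% of all genes. In 13 the groups did not overlap in this direction, against 4.91% of all genes. Both shares include genes with few counts outside the DPPA3 mRNA group. XAF1 summed to 259 counts after DPPA3 mRNA, 19 after reagent alone and 5 over the untreated controls, and RTP4 to 496, 27 and 10. How many of the 36 were tested only through the DPPA3 mRNA libraries was not counted. This list and those below were also chosen with earlier results known, so such shares describe the listed genes only. The 4 genes with the smallest p were IFITM1, a membrane protein that hinders virus entry (log2 fold change 2.19), IFI6 (4.47), and OAS1X (5.70) and OAS1Y (3.22), which make a second messenger that activates RNA decay; reads of these OAS1 copies may be shared. MX2 and RSAD2 had larger fitted values than any of these, and that order was not tested. Over untreated control the median was 2.21, and 1 of 36, IFITM1, was called by edgeR, where 0.0134% of all genes were called higher.

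DPPA3 mRNA replicate 2 was the highest of all 9 libraries for each of the 4 genes and for 36 of the 36 other effectors. The order replicate 2, then 3, then 1 held for 32 of these 36 and for MX1, MX2 and CMPK2, and the order 2, 1, 3 for the other 4 and for RSAD2. How often replicate 2 was highest, or either order occurred, among all genes tested was not counted. These counts therefore describe the listed genes only. The ratio of replicate 2 to replicate 1 had a median of 6.08 over the 36, against 24.0 for MX1, 27.0 for MX2, 25.5 for RSAD2 and 12.2 for CMPK2. Leaving out DPPA3 mRNA replicate 2, the median log2 fold change of the 36 over reagent alone was 0.58.

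For genes upstream of these effectors the medians were lower. Of 10 tested RNA sensors and adaptors 0 were called over reagent alone (median log2 fold change 0.44), where edgeR called 0.00672% of all genes higher. Of the 10, 4 had an unadjusted p under 0.05 with higher levels (1.27% of all genes), and in 3 the groups did not overlap in this direction (4.91%). The smallest p was that of DHX58, DDX58 and IFIH1, cytosolic receptors of the RIG-I family, and TRIM25, at log2 fold changes of 2.33, 2.07, 2.19 and 0.67. Of 20 tested receptors, kinases and transcription factors of interferon signalling 0 were called (median 0.061). By the same measures, 4 of the 20 had an unadjusted p under 0.05 with higher levels and 3 had no overlap. IRF9, a DNA-binding factor of interferon signalling, averaged 67.8 ± 33.9 CPM after DPPA3 mRNA and 29.9 ± 7.08 after reagent alone (SD, n = 3 each). The log2 fold change was 1.17 for IRF9, 0.82 for IRF1, 1.15 for IRF7 and 0.38 for STAT2. Of the 15 interferon genes matched, 11 had 0 counts in all libraries, among them IFNB1. IFNE summed to 76 counts with DPPA3 mRNA, 45 with reagent alone and 38 in untreated control, and IFNT3 to 30, 22 and 34. IFNT2 and IFNK had at most 17 counts in any group.

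For relatives and metabolic partners of the 4 genes the medians lay near 0. Counts called are again set against 0.00672% of all genes called higher by edgeR. The 9 tested dynamin superfamily GTPases other than MX had a median log2 fold change over reagent alone of -0.030, with 0 called and the smallest p for DNM1, at a log2 fold change of 0.46. The 8 tested genes of a list of radical SAM enzymes, which also held the iron-sulfur assembly factor CIAO1, had a median of -0.028, with 0 called and LIAS, the lipoic acid synthase, at -0.59 (edgeR adjusted p = 0.9998). Of 20 pyrimidine nucleotide genes 0 were called (median 0.041), and DTYMK, the thymidylate kinase, had the smallest p, at a log2 fold change of 0.54. An unadjusted edgeR p under 0.05 with higher levels was reached by 1 of these 20, 0 of the 9 GTPases and 0 of the 8 genes, against 1.27% of all genes. CMPK1, the cytosolic relative of CMPK2, had 27.2 ± 8.64 CPM after DPPA3 mRNA, 30.6 ± 5.89 after reagent alone and 17.3 ± 8.69 in untreated control (SD, n = 3 each).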

How the data were processed

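The authors deposited raw read counts per gene symbol, 1 column per library, in 9 libraries. Total RNA was TRIzol-extracted and libraries were made by an IDT xGen kit, per the labels' protocols. Trimmomatic, HISAT2, HTSeq and edgeR are named in the submitters' processing notes; what each did, the build, annotation and strand setting used by the authors is not given in the sources used here. Of 30641 symbols, 24552 (80.1%) matched the RefSeq table of ARS-UCD2.0, used only for gene order.

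The members and gene lists were chosen with earlier results of these data known. Counts were filtered with filterByExpr (minimum count 10), scaled with TMM factors and fitted over all 3 groups with edgeR 4.0.16 (glmQLFit, glmQLFTest; R 4.3.3), and p-values were adjusted (Benjamini-Hochberg) over 14874 genes, with a threshold of 0.05. The biological coefficient of variation common to all genes was 0.26. An SE is the log2 fold change over the square root of F. Intervals are exact (95%), and the floor for a count of 0 is 3 counts per library. Named genes were the members, up to 4 per list with the smallest p, and the 5 nearest profiles per member among other genes (prior count 2); marker genes, neighbours, CMPK1 and interferon genes were named outside this rule, after values were seen. Replicates differed by more than sampling noise (chi-square over its degrees of freedom at least 13.4).

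The same replicate numbers occur in all groups. Deviations from group means correlated between equal numbers of DPPA3 mRNA and untreated control at 0.34, 0.32 and 0.12. Unequal numbers were not compared, so these values cannot show whether the numbers pair libraries, and the labels do not say. Alternatives were the DESeq2 1.42.0 Wald test, size factors from DESeq2 in edgeR, no filter, limma 3.58.1 voom with quality weights, only the groups compared, library sizes without DPPA3, a block for replicate, thinning, and each library left out. The fit was tested on simulated data, in which 200 genes differed.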

Additional observations from a re-analysis of the deposited data

How the results depend on the processing

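All 4 genes kept a positive log2 fold change over reagent alone and over untreated control under every alternative that gave a value. For MX2 and RSAD2, with few or no counts outside the DPPA3 mRNA group, the sign could hardly have turned, so nothing is read from it. Thinning all libraries to the smallest total left MX2 untested, and DESeq2 gave no p for MX2 and RSAD2. Over reagent alone the adjusted p ranged from 3.8e-20 to 0.99998 for MX1, 1.6e-12 to 0.99998 for MX2, 1.7e-21 to 0.99998 for RSAD2 and 9.2e-09 to 0.99998 for CMPK2; the lowest came with no filter, the 1 setting with all libraries in which all 4 passed, and the cause was not tested. Over untreated control it ranged from 7.2e-25 to 0.91 for MX1, 8.8e-14 to 0.999 for MX2, 2.5e-24 to 0.91 for RSAD2 and 1.2e-10 to 0.999 for CMPK2.

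The genes called for DPPA3 mRNA over reagent alone, DPPA3 mRNA over untreated control and reagent alone over untreated control were 1, 2 and 0. They were 66, 69 and 18 with no filter and 9, 10 and 2 with DESeq2. Voom called 4 in the second and 2 in the third. Leaving DPPA3 out of library sizes also took it out of the test, and the first and second counts were then 0 and 0. When 1 library was left out the counts ranged from 1 to 20, 1 to 26 and 0 to 1, and the log2 fold change over reagent alone from 2.20 to 4.83 for MX1, 3.60 to 7.46 for RSAD2 and 1.26 to 3.69 for CMPK2. Voom with quality weights gave 3.13, 4.78 and 2.01 for these genes. Without both DPPA3 mRNA replicate 2 and reagent alone replicate 3, chosen after the data were seen, 2 were called in the first, and the log2 fold change of MX1 was 2.93. With the replicate block 2, 7 and 0 were called. Over reagent alone the block gave MX1 3.44 (adjusted p 0.39), MX2 7.19 (0.076), RSAD2 6.22 (0.058) and CMPK2 2.66 (0.999). Equal numbers of DPPA3 mRNA and reagent alone correlated at 0.14, 0.12 and 0.086, and of reagent alone and untreated control at 0.15, 0.14 and 0.093. Unequal numbers were not compared there either, so pairing was not tested. Depth limits MX2 and RSAD2 without mRNA, where 1 count is worth 0.079 to 0.249 CPM with reagent alone.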
